A study of Mus musculus with 3 samples.

Results

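The genes of the cytosolic ribosomal proteins were examined as 1 set in the open chromatin of mouse hair follicle stem cells (HFSCs). Members were the autosomal protein-coding genes of GRCm38 named Rpl or Rps with a number and at most 1 further letter, together with Rpsa, Rplp0, Rplp1 and Rplp2. This gave 76 of 20720 autosomal protein-coding genes, with 43 of the large subunit, 30 of the small subunit and 3 of the stalk. The rule used names alone and no measured value. It also took 4 paralogs outside the standard ribosome, Rpl3l, Rpl10l, Rpl39l and Rps27l, and it left out Rps3a1, Rpl36al and the ribosomal proteins on the X chromosome.

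Open chromatin was mapped with Omni-ATAC-seq, an assay where Tn5 transposase inserts adapters into DNA that is not covered by nucleosomes. The cells were sorted as CD34+CD49f+Sca-1- from dorsal skin in telogen, when hair growth rests, at an age of 6 months and without treatment. There was 1 library from wild-type mice (Msx2-WT, called WT), for which the study used C57BL/6J mice at the same stage of the hair cycle, and there were 2 libraries from mice homozygous for a germline knockout of Msx2 (Msx2-KO replicates 1 and 2, called KO1 and KO2), made with a pMC1-neo cassette placed upstream of exon 2. By the study's account of germline transmission, the knockout is carried by every cell type of these mice. The deposited KO lists name their peaks "cKO", and the labels were followed. Whether a library came from 1 animal or from several was not given in the labels. By the labels WT belonged to one batch and KO1 and KO2 to another. Batch and genotype therefore cannot be told apart, and no test between genotypes was run, as WT had 1 library.

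A cytosolic ribosome is built from a small subunit, which reads the messenger RNA, and a large subunit, which joins amino acids, and most ribosomal proteins are needed in equal amount. In mammals their genes are transcribed in nearly every cell, are short, often hold small nucleolar RNAs (snoRNAs) in their introns, and start at a C within a run of pyrimidines. That run, the 5′ terminal oligopyrimidine tract, stays at the head of the messenger RNA, where it lets mTOR signalling set translation. Growing and resting stem cells are known to differ in ribosome production, and loss of single ribosomal proteins causes particular phenotypes, among them darkened skin in mice with altered Rps19 or Rps20.

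The pyrimidine run can be seen in the reference sequence around the annotated starts (RefSeq assembly GRCm38.p6, starts from GENCODE M21). Each sequence below holds 80 bases before the start of the principal transcript and 25 bases from it, 5′ to 3′ on the strand of the gene, and capitals mark the longest run of C and T within 25 bases of the start. Rpl34, Rps2 and Rps24 are shown because they had the longest runs among the members, with 20, 20 and 19 bases. They lie at chr3:130730313-130730417 (- strand), chr17:24720030-24720134 (+ strand) and chr14:24490638-24490742 (+ strand).
Rpl34: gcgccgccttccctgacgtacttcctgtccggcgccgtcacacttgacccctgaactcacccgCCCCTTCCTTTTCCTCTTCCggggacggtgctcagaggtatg
Rps2: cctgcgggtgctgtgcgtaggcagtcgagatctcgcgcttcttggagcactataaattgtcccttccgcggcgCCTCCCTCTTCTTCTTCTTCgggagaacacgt
Rps24: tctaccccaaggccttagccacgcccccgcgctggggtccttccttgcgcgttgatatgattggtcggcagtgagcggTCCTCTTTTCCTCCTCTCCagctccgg
Rps20 and Rpsa are shown because their summits lay close to the start in every library, at chr4:3835641-3835745 (- strand) and chr9:120127609-120127713 (+ strand).
Rps20: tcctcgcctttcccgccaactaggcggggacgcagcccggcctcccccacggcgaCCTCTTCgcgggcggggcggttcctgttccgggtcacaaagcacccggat
Rpsa: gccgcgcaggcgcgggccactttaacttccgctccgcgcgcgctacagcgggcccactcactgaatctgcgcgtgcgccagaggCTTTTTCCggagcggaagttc
Rps6 and Rpl11 are shown for the letters CCGGAAGT, the core bound by ETS factors, which lie before the start of Rps6 and just after that of Rpl11, at chr4:86857388-86857492 (- strand) and chr4:136053369-136053473 (- strand).
Rps6: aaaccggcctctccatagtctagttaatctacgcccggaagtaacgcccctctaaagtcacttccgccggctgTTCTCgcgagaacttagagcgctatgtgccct
Rpl11: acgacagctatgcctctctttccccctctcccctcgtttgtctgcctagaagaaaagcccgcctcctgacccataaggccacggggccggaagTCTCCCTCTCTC
Rpl3 is shown because it was the single member past 2-fold between WT and both KO libraries, at chr15:80083382-80083486 (- strand), and it was added after its values were seen.
Rpl3: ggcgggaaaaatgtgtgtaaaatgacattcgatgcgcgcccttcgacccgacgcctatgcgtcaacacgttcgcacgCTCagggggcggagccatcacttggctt

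The longest run of C and T within 25 bases of the start had a median of 7 bases in the members and 5 in all other genes. A run of at least 10 bases was found in 24 of 76 members (31.6%), compared with 9.03% of all other genes and 8.58% of the other genes with a promoter peak in all 3 libraries. The letters CTTT followed by C or T, searched on the strand of the gene in the same window, occurred in 23 members (30.3%) and in 9.72% of all other genes. Thus runs of 10 bases or more were commoner among the members, while most of them held none at the principal start. This does not count shorter tracts or tracts at other starts. At Rps10 on chromosome 17, for one, the principal start was 27636669 and the WT summit 27635308.

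Depth differed between the libraries, and a few facts of the whole series bear on every value below. The deposited lists hold 1 summit per line with its fold enrichment over the local background, from which whole tag numbers were solved, a tag being an extended read that covers the summit. The commonest background, used as depth, was 1.74 tags in WT, 0.476 in KO1 and 0.790 in KO2. Summits with a −log10 q above 2 were used, which required at least 9, 5 and 6 tags, and 33654, 19450 and 41091 summits passed. A promoter was called open where such a summit lay within 1500 bases of an annotated start, and the summit with the largest −log10 p stood for it. Of 10 HFSC marker genes 8, 7 and 9 had an open promoter in WT, KO1 and KO2, whereas none of 4 leukocyte and none of 2 endothelial markers had one in any library. Among 3 markers each, 2, 1 and 3 fibroblast genes and 2, 2 and 2 melanocyte genes were open, and 2 of the interfollicular epidermis, Krt10 and Ly6a, were open in WT alone. The part of such cells in the values below was not tested. Intervals for shares (Wilson) and tag numbers (Poisson) are at 95% and cover counting error only, and duplicate reads, which the authors kept, are not independent molecules.

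Nearly every ribosomal protein gene had an open promoter. In WT 73 of 76 members were open (96.1%, interval 89.0 to 98.6), where 48.5% of all genes were. In KO1 the count was 61 of 76 (80.3%, interval 70.0 to 87.7), where 38.7% of all genes were open. In KO2 it was 73 of 76 (96.1%, interval 89.0 to 98.6), where 54.8% of all genes were open. The members' intervals lay above the share of all genes in each library.

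The 3 genes without an open promoter in any library were Rpl3l, Rpl10l and Rpl39l, paralogs known for use in muscle or in the testis, and no summit was listed near their starts at all. With the 4 paralogs left out, all 72 remaining members were open in WT and in KO2, and 61 of 72 in KO1. Rps27l, a paralog of Rps27 known as a p53 target, was open in WT with 29 tags and in KO2 with 18 tags.

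**Figure D1:**
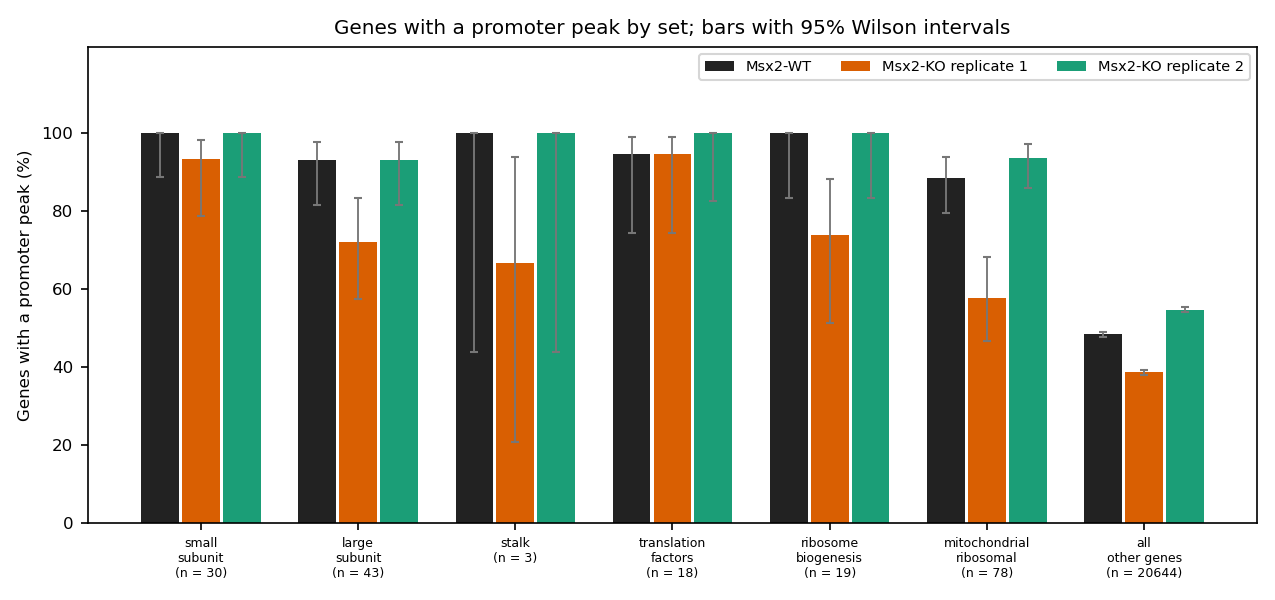
Share of genes with an open promoter (y axis, percent) in each gene set (x axis, with the number of genes), 1 bar per library with its 95% Wilson interval. Bars for the small and large subunit stand above those for all other genes in each library. Among the cytosolic ribosomal sets of more than 3 genes, the lowest bar is the large subunit in KO1, at 72.1%. The large subunit includes Rpl3l, Rpl10l and Rpl39l, paralogs closed in every library.

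The small subunit was open in 30, 28 and 30 of 30 genes in WT, KO1 and KO2. The large subunit was open in 40, 31 and 40 of 43 genes, and the stalk, a flexible arm of the large subunit that recruits translation factors, in 3, 2 and 3 of 3. The counts of the large subunit include the paralogs Rpl3l, Rpl10l and Rpl39l, its only closed genes in WT and KO2. In KO1 the intervals of the small subunit (78.7% to 98.2%) and of the large subunit (57.3% to 83.3%) overlapped.

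No member was open in both KO libraries and closed in WT, a state that 2.20% of all genes had, and none was open in WT alone, which also held for 2.20% of all genes. There were 61 members open in all 3 libraries. The other 12 members were open in WT and in KO2 and lacked a peak in KO1, the shallowest library. Among these were 10 genes of the large subunit or stalk, Rpl4, Rpl6, Rpl10a, Rpl11, Rpl12, Rpl13, Rpl19, Rpl23, Rpl23a and Rplp1, and the paralog Rps27l. Among genes open in WT and KO2, 12 of 73 members (16.4%, interval 9.66 to 26.6) lacked a peak in KO1, where 21.7% of all such genes did, so the members' share lay near the background.

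Of these 12 genes, 7 had a summit in the KO1 list that missed the q limit, with 3 tags at Rpl11 and 4 tags at the others, among them Rpl6, Rpl10a, Rpl19, Rpl23 and Rps27l. At Rpl4, Rpl12, Rpl13, Rpl23a and Rplp1 no summit was listed. The 12 genes also had weak peaks in the other libraries. Their tag number in WT had a median of 19 (10 to 32), compared with 32 (13 to 76) at the 61 members open throughout, and in KO2 a median of 11 (6 to 18) compared with 29 (10 to 77). The lowest value in KO2 was that of Rpl23, with 6 tags there and 18 in WT.

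Summits of the ribosomal protein genes lay closer to the start than those of other open promoters. The median distance to the nearest annotated start of the gene was 35 bases in the members and 78 in the others in WT, 54 and 96 in KO1, and 62 and 91 in KO2. The members were thus nearer by 43, 42 and 29 bases at the median. In KO2 this difference depended on the setting and was 15 bases with lists of equal length, 16 beside promoters of like tag numbers and 18 with a −log10 q of at least 5 or a window of 500 bases. A summit within 100 bases of a start was found at 57 of 73 open members in WT (78.1%, interval 67.3 to 86.0), 41 of 61 in KO1 (67.2%, 54.7 to 77.7) and 48 of 73 in KO2 (65.8%, 54.3 to 75.6). The shares among the other open promoters were 59.0%, 52.0% and 53.7%, below each of these intervals.

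The members' shares were also higher very near the start. Within 25 bases lay 29 of 73 of the members' summits in WT (39.7%), 14 of 61 in KO1 (23.0%) and 20 of 73 in KO2 (27.4%). Of the others it was 19.5%, 16.3% and 17.7%. No intervals were taken at this distance, so counting error was not weighed, and the difference was smallest in KO1. Over all 76 members and all 20644 other genes, open or not, the median was 2 annotated starts per gene in both. The members had more on average (2.18 compared with 1.91), and 40.8% of them had a single start compared with 48.2% of those other genes. Starts were not counted for the other open promoters alone. With 1 principal start per gene the members were nearer by a median of 43, 43.5 and 37 bases. On the signed scale negative values are upstream. The members' medians were −25, −15 and −16 bases and those of the other open promoters −45, −42 and −25 bases. Summits lay upstream at 68.5%, 59.0% and 63.0% of open members and at 69.8%, 63.3% and 59.1% of the others.

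**Figure D2:**
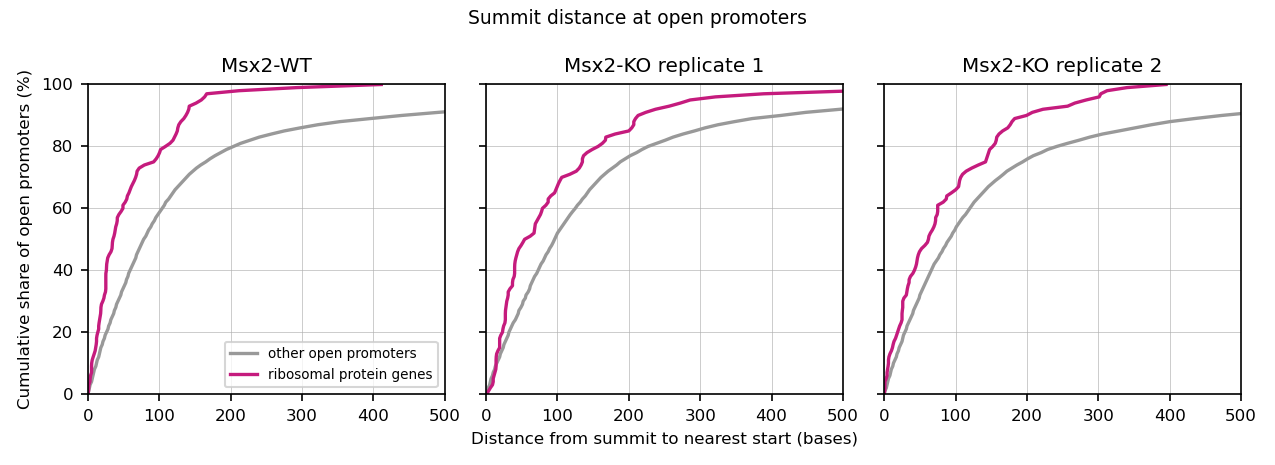
Cumulative share of open promoters (y axis, percent) by the distance from the summit to the nearest start (x axis, bases, shown up to 500) in each library, with ribosomal protein genes in magenta and all other open promoters in grey. Over most of the range the magenta line runs above the grey one, and it reaches 78.1% against 59.0% at 100 bases in WT.

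Rps20, a protein at the head of the small subunit, had the most stable summit, at −5 bases in WT, −10 in KO1 and −7 in KO2. The summits of Rpsa, known also as the laminin receptor, lay at −18, −14 and −1 bases. Rps6, the small subunit protein phosphorylated after mTOR activation, had summits inside the gene at 37, 43 and 87 bases. Over the 61 members open throughout, the summit moved by a median of 40 bases between WT and KO1, 30 between WT and KO2 and 40 between the KO libraries, compared with 48, 43 and 47 bases at 7427 other promoters.

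The members farthest from a start on average were Rpl41, Rpl35 and Rps25. Rpl41, the shortest ribosomal protein, had summits at −39 bases in WT and −1 in KO2, whereas in KO1 the strongest summit lay 1270 bases downstream within a peak of 2003 bases. These distances were counted from different annotated starts, and on the chromosome the summits of Rpl41 spread over 1369 bases. Rpl35 had its summits inside the gene in every library, at 411, 565 and 301 bases. Those of Rps25 lay at −247, 200 and −259 bases, counted from different annotated starts. On the chromosome the 3 summits of Rps25 were at 44407448, 44407339 and 44407436 of chromosome 9, so the change of sign came from the annotation.

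Rpl24 and Rpl5 also had summits downstream in every library. Rpl24, whose mutation causes the Belly spot and tail phenotype, had them at 125, 132 and 164 bases, and Rpl5, a partner of 5S ribosomal RNA, at 134, 207 and 204 bases. Rpl38, whose loss alters the vertebral pattern in the Tail-short mouse, had a summit at −18 bases in WT and at 231 and 395 bases from another annotated start in the KO libraries, and on the chromosome its summits spread over 515 bases. Rplp2 of the stalk had summits at 167, −143 and 146 bases, also counted from different starts, and on the chromosome they lay within 53 bases of each other.

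The width of the promoter peaks did not set the members apart at the median. The members had median widths of 671, 862 and 1029 bases in WT, KO1 and KO2, and the other open promoters 674, 836 and 1061 bases. The differences of −3, 26 and −32 bases changed sign between the KO libraries. Very wide peaks were few, with 1, 2 and 5 open members over 1500 bases (1.37%, 3.28% and 6.85%) compared with 1.30%, 5.33% and 15.1% of the others.

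**Figure D3:**
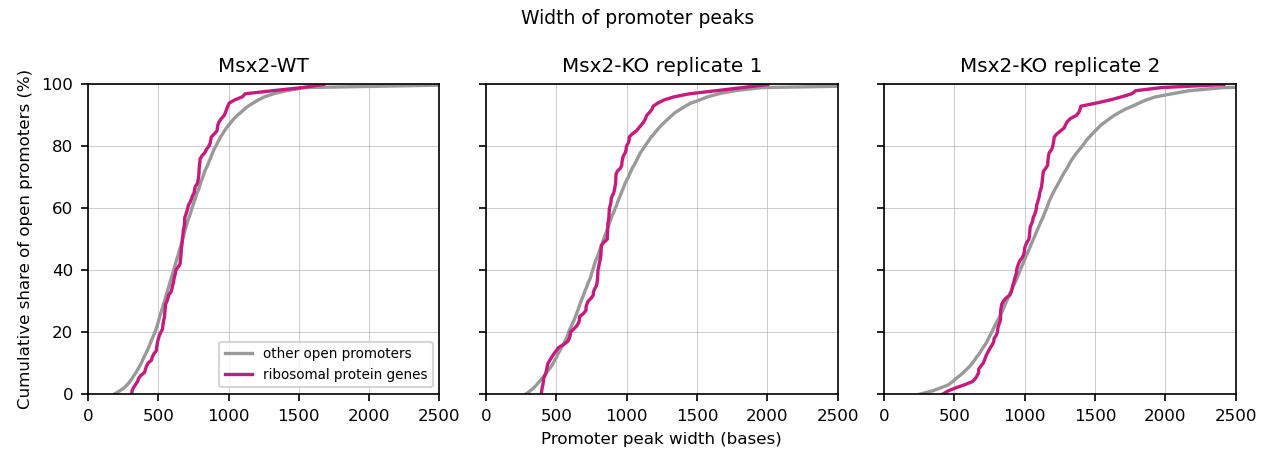
Cumulative share of open promoters (y axis, percent) by peak width (x axis, bases) in each library, with ribosomal protein genes in magenta and all other open promoters in grey. The lines cross near the medians of 671 and 674 bases in WT, and in KO2 the grey line reaches further to the right.

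By mean rank over the libraries the widest peaks included those of Rpl7, Rpl29, Rpl15 and Rpl37, all proteins of the large subunit. Rpl7 had 1676, 1702 and 1777 bases in WT, KO1 and KO2. Rpl29 had 947, 1099 and 1284 bases. The narrowest belonged to Rpl24, Rps28, Rpl14, Rpl22 and Rpl8. Rpl24 had 537, 397 and 559 bases, and Rpl14 had 671, 409 and 417 bases. Widths of the same member were loosely ordered between libraries, with a Spearman's rho of 0.30 to 0.37 over the 61 members open throughout, which share the genes and their base composition.

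The signal at the summit, as tags over the background of the library, was near the middle of all open promoters. The members had a median of 16.7 in WT, 23.1 in KO1 and 29.1 in KO2, and the others 13.8, 27.3 and 26.6. On the log2 scale the members differed from the others by 0.27, −0.24 and 0.13, so the direction was not the same in every library. Over the 61 members and 7427 other promoters open in all 3 libraries, the members' median stood at 0.14, −0.35 and 0.00 (log2) relative to the median of that library. Thus nearly all of these genes were open while their median signal was not far from that of other open promoters.

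Rps19, mutated in Diamond-Blackfan anaemia, had the highest mean rank, with 76 tags in WT (interval 59.9 to 95.1), 45 in KO1 (32.8 to 60.2) and 77 in KO2 (60.8 to 96.2). Rpl37, with 48, 44 and 67 tags, Rpl18, with 61, 32 and 52 tags, and Rps20, with 45, 35 and 70 tags, were also among the highest. Over the background of each library Rps19 stood at 43.7, 94.5 and 97.5, at percentiles 98.2, 96.4 and 97.8 of all open promoters, while the highest value of any other gene was 984, 861 and 989.

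The lowest mean ranks among members open throughout belonged to Rpl8, Rps28, Rpl35a, Rps10 and Rpl14. Rpl8 had 18, 7 and 10 tags and Rps28 had 18, 5 and 15 tags, the middle value of each at or near the limit of KO1. Levels of the same member were ordered alike in the KO libraries (Spearman's rho 0.87 over 61 members) and less alike between WT and these (0.55 and 0.69). At the 7427 other promoters the values were 0.84, 0.62 and 0.68. These values compare the same promoters between libraries of unlike depth, and they carry no test. KO1 and KO2 also share the genotype and the labelled batch, which WT does not.

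**Figure D4:**
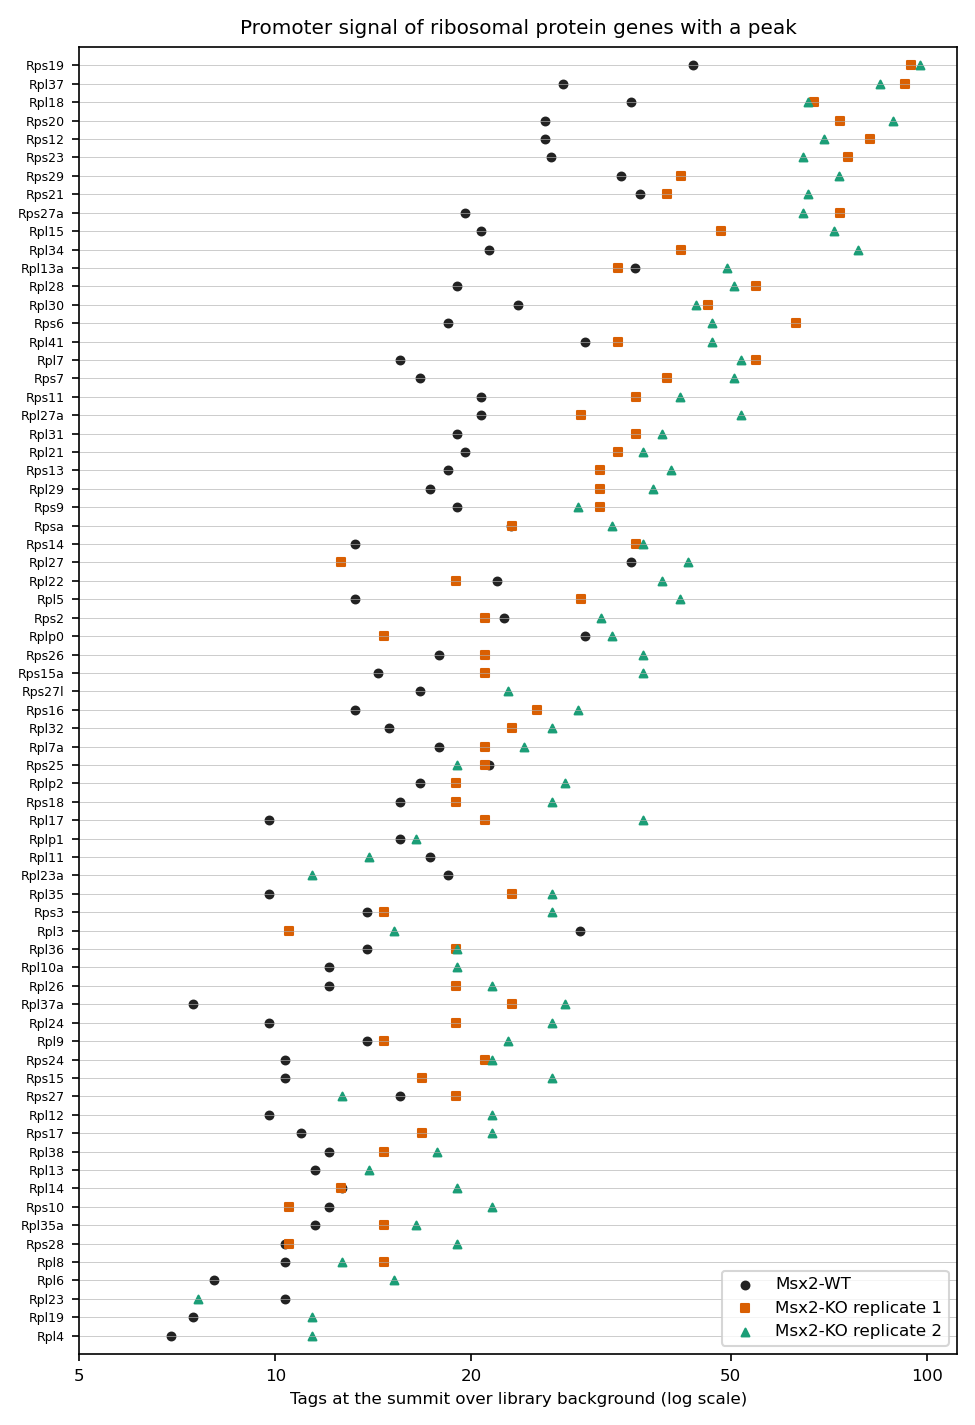
Tags at the summit over the library background (x axis, log scale) for ribosomal protein genes with an open promoter (y axis, ordered by mean rank, a few genes not shown), 1 symbol per library. Rps19 is at the top with 43.7 in WT and 94.5 and 97.5 in the KO libraries, Rpl4 is at the bottom, and genes without an orange square had no peak in KO1.

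The comparison of WT with KO asked whether the absence of Msx2 went with another level of accessibility at these promoters. Tags over background were divided by the median of the promoters open in all 3 libraries, which takes out the overall difference in tag density. Of 61 members none was past 2-fold higher in both KO libraries, where 3.15% of all 7488 promoters were, and 1 was past 2-fold lower in both (1.64%), where 2.52% of all were. Among members open in all 3 libraries the counts were thus not above the background in either direction. The 12 members without a peak in KO1 could not be counted, and other such promoters were left out alike. Of these 12, Rpl11 (−1.45), Rpl23 (−1.58), Rpl23a (−1.83) and Rplp1 (−1.05) were past 2-fold lower in KO2, and none was past 2-fold higher. Of all promoters open in WT and KO2, 12.3% were past 2-fold between them in either direction, with medians over those promoters. Of the members it was 7 of 73. No share was taken for the other promoters that lacked a peak in KO1 alone, so these values are not read as a result about the members.

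The 1 member was Rpl3, which lies near the peptidyl transferase centre of the large subunit. It had 51 tags in WT (interval 38.0 to 67.1), 5 in KO1 (1.62 to 11.7) and 12 in KO2 (6.20 to 21.0). Over background these were 29.3, 10.5 and 15.2, and relative to the median promoter Rpl3 was lower by log2 values of −2.30 and −2.09. The KO1 peak had the lowest tag number that could pass the q limit, so with a −log10 q of at least 5 Rpl3 was no longer open in KO1 and 0 members were past 2-fold. The summits at Rpl3 lay at −26, 31 and 148 bases.

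Further members of the 61 passed 2-fold in 1 KO library. With medians over the promoters open in all 3 libraries, most of these members were lower than in WT. Rplp0, the base of the stalk, had 52, 7 and 26 tags, which gave −1.84 in KO1 and −1, exactly at the limit, in KO2. Rpl27 had 61, 6 and 34 tags, with −2.30 and −0.84. Rpl22 (−1.03) and Rps10 (−1.02) were past 2-fold lower in KO1 alone, and Rps25 (−1.30) and Rps27 (−1.43) in KO2 alone. With these medians the only member past 2-fold in the other direction was Rps27a, which is made as a fusion with ubiquitin. It had 34, 35 and 51 tags, with 1.09 and 0.58. Of all promoters open in WT and KO1, 16.9% were past 2-fold between them, with medians taken over those promoters. For WT and KO2 that share was 12.3%. With the medians of WT and KO1, Rpl7, Rpl37, Rps6 and Rps27a were past 2-fold higher in KO1. Rpl3, Rpl27 and Rplp0 were past 2-fold lower there, so the prevailing direction in KO1 depended on the medians. Shares of all promoters by direction were not taken. The highest and lowest differences of all members came from KO1, the shallowest library.

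Over all 61 members the median difference from WT was −0.12 in KO1 and −0.13 in KO2, compared with 0.05 and 0.05 at the other promoters. Both comparisons share the WT library. The members' middle 50% ran from −0.64 to 0.29 and from −0.49 to 0.28, so the shift of the median was small beside the spread between genes. Both KO libraries were below WT at 31 members (50.8%) and above it at 21 (34.4%), compared with 34.9% and 41.8% of the other promoters.

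**Figure D5:**
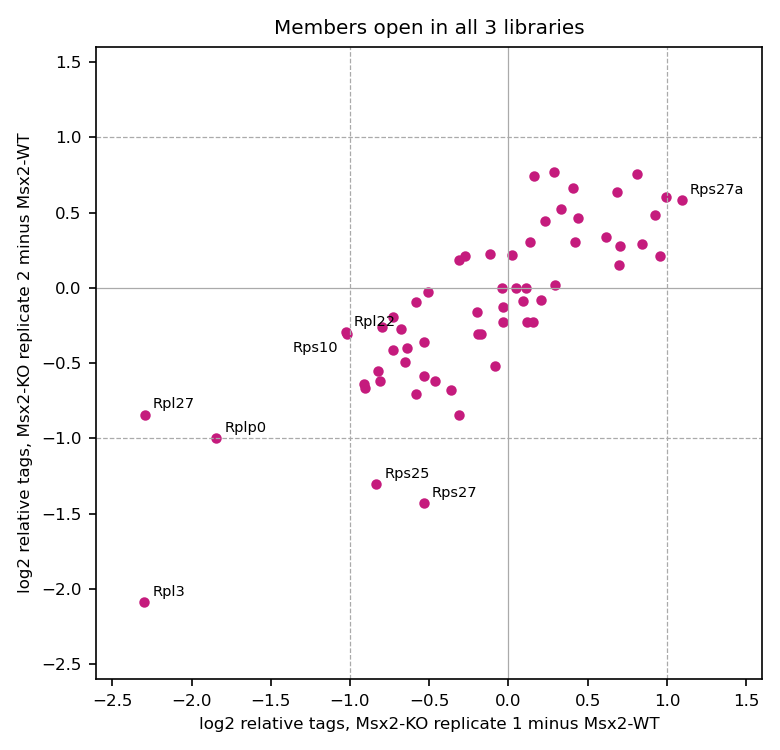
Difference from WT in log2 relative tags for KO1 (x axis) and KO2 (y axis), 1 point for each of the 61 members open in all 3 libraries, with dashed lines at 2-fold and names where either value is past it. Rpl3 at −2.30 and −2.09 is the only point past 2-fold on both axes, and most points lie around 0.

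The members named here from the list of known roles did not move together. Rps20 was above WT in both KO libraries (0.69 and 0.64), as was Rps6 (0.96 and 0.21), and Rps19 was at 0.29 and 0.02. Rpsa was below it (−0.81 and −0.62), as was Rpl38 (−0.53 and −0.58). Rpl5, with 23, 14 and 33 tags, was at 0.33 and 0.52, while its partner Rpl11 in the particle that binds 5S ribosomal RNA had 30 tags in WT, 11 in KO2 (−1.45) and no peak past the limit in KO1. All of these values are within 2-fold except that of Rpl11.

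Further features that the rule did not use were read from the annotation and the sequence. A snoRNA lay within 27 of 76 members (35.5%, interval 25.7 to 46.7), with 54 snoRNAs in all, whereas 1.04% of all other genes held one. Rpl4 held 5 and Rpl13a held 4. The members were short, with a median gene length of 3399.5 bases compared with 17692.5. An annotated start of another gene on the opposite strand lay within 1000 bases of 11 members (14.5%, interval 8.28 to 24.1) and of 8.10% of the others. Among promoters open in all 3 libraries these shares were 14.8% (interval 7.96 to 25.7) and 17.5%.

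Short motifs were searched on both strands from 250 bases before to 50 bases after the principal start. The ETS core CCGGAAGT was found at 14 members (18.4%), among them Rps6, Rpsa, Rpl11 and Rpl37, compared with 5.06% of all other genes and 8.93% of those open in all 3 libraries. The GC box GGGCGG, bound by SP1, was found at 37 members (48.7%), compared with 46.0% and 68.0%. The CCAAT box, bound by NF-Y, was found at 21 members (27.6%), compared with 37.8% and 41.7%. TATAAA, searched on the strand of the gene from 40 to 15 bases before the start, occurred at 1 member, Rps2, in the sequence printed above, and at 2.42% of all other genes. A match gives the presence of these letters only.

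The G+C content within 250 bases of the start had a median of 60.3% in the members, 58.2% in all other genes and 63.6% in those open throughout. Members with a pyrimidine run of at least 10 bases did not have nearer summits. Their median distance was 41, 73 and 62.5 bases in WT, KO1 and KO2, compared with 32, 45 and 60 bases in members with a shorter run. Their median signal was 15.2, 23.1 and 27.2, compared with 17.8, 25.2 and 32.9. Hosts of snoRNAs had a median signal of 18.4, 29.4 and 31.6, compared with 16.1, 21.0 and 28.5 in the other members. These differences between members were small beside the quartiles of their signal, which were 12.1 and 21.9 in WT.

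Other genes of protein synthesis were set beside the members. The 78 genes of mitochondrial ribosomal proteins were open in 69, 45 and 73 cases, with a median distance of 51, 71 and 57 bases and a median signal of 12.7, 21.0 and 21.5. The distances of the cytosolic set (35, 54 and 62) were shorter than these in WT and KO1 and longer in KO2. A summit within 100 bases of a start was found at 72.5%, 66.7% and 75.3% of the open mitochondrial set. The cytosolic set had 78.1%, 67.2% and 65.8%, so nearness to the start was not particular to it. The 18 translation factors of a fixed list, among them Eef1a1 and Eef2, were open in 17, 17 and 18 cases with a median signal of 24.7, 44.1 and 54.4, above the median of the members in each library. The 19 genes of ribosome biogenesis, among them Fbl and Ncl, were open in 19, 14 and 19 cases, with a median distance of 111, 78 and 99 bases and a signal of 11.5, 17.9 and 26.6.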

How the data were processed

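Omni-ATAC-seq peak lists of 1 WT and 2 KO libraries of HFSCs were used. Reads had been trimmed (Trimmomatic) and placed on GRCm38 (BWA-MEM) by the authors, who called peaks in each library with MACS2, duplicates kept (version not given in the sources used here). A shift of 100 bases and an extension of 200 are named without a sign, which bears on where a summit lies. The authors deposited a fold enrichment (a ratio of tags plus 1 over local background plus 1) and −log10 p and q-values per summit. The lists end at a p-value of 0.01, so a −log10 q above 2 was required here. The KO lists name their peaks "cKO", and the peak names of KO1 carry another library number than its label. The labels were followed.

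Whole tag numbers were solved from the fold and −log10 p (tolerance 0.01), which worked for at least 99.9% of summits and was tested on simulated data. Starts came from basic protein-coding transcripts of GENCODE M21, and distances were taken to the nearest start of the gene. Reads of these genes can also match processed pseudogenes, and how such reads were placed was not given in the sources used here. Named genes were every member closed in a library, the 5 highest and 5 lowest by width and by signal, the 3 farthest from a start, those past 2-fold, the 4 paralogs and a list of known roles; Rpl36 and the genes past 2-fold in 1 library, such as Rpl27 and Rps27a, were chosen after their values were seen. Some genes that the rule names are not reported here, though counts and medians include them. Members and lists were chosen with earlier results of these data known. No test was run, since the only replicates were 2 KO libraries. Scripts ran on matplotlib 3.10.9, pysam 0.24.0, scipy 1.17.1, numpy 2.4.6, pandas 2.3.3 and Python 3.11.15.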

Additional observations from a re-analysis of the deposited data

How the results depend on the processing

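Of 140 values under other settings, 115 stayed within the spread between the KO libraries or, for counts, within 1.5 times the value reported, and 25 moved further. That spread was 41.0 bases for width, more than each width difference reported, and 0.263 for the log2 signal, near the largest reported. A width or signal could therefore change sign and still be among the 115, so for these the count does not measure stability. The distance of the members' summits minus that of the others kept its sign in 33 of 33 values, the signal in 30 of 33 and the width in 27 of 33. With every deposited summit the distance became −58 bases in WT, −32 in KO1 and −39.5 in KO2, and the width 61 bases in WT and 29 in KO2. In KO2 the distance was −18 where −log10 q reached 5 or more, −15 with lists of equal length (19450 summits each), −18 with a window of 500 bases, −40 with ribosomal protein genes outside the naming rule, such as Rps3a1, added and the paralogs left out, and −16 beside promoters of like tag numbers. Beside promoters of like G+C content the distance was −32 in WT and the width 29.5 bases in KO2. Beside other promoters open in all 3 libraries the width was −47 in WT and −96 in KO2, and the log2 signal was 0.00 and −0.33. The cause was not tested.

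Members open in WT and in neither KO library numbered 7 with a −log10 q of at least 5 (Rpl8, Rpl13, Rpl19, Rpl23, Rpl23a, Rpl36 and Rps27), where 3.06% of all genes had this state, and 5 with lists of equal length (Rpl11, Rpl13, Rpl19, Rpl23 and Rpl23a), where 3.31% had it. Without KO1 or without KO2 that number was 0 or 12, where 2.34% or 12.2% of all genes had it. Members past 2-fold numbered 0 of 44 with a −log10 q of at least 5 (3.65% of all promoters), 3 of 68 with every deposited summit (Rpl3, Rpl11 and Rplp0, 7.16% of all), 2 of 60 with a window of 500 bases (5.77% of all) and 2 of 61 with the nearest summit (6.68% of all), both times Rpl3 and Rplp0. Leaving out either KO library gave 7. Without KO1 these were Rpl3, Rpl11, Rpl23, Rpl23a, Rplp1, Rps25 and Rps27, where 12.3% of all promoters passed. All of them were lower in KO2 than in WT. Without KO2 they were Rpl3, Rpl7, Rpl27, Rpl37, Rplp0, Rps6 and Rps27a, where 16.9% of all passed. Of these Rpl3, Rpl27 and Rplp0 were lower in KO1 than in WT, and Rpl7, Rpl37, Rps6 and Rps27a were higher. No paired analysis was possible because the groups share only 1 replicate number and no test was run. Depth limits KO1 most, where a peak needed 5 tags at a background of 0.476.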

Other observations

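Ribosomal protein genes outside the rule were mostly open as well. Rps3a1 had 38, 12 and 34 tags and Rpl36al had 44, 17 and 39 tags in WT, KO1 and KO2. Fau, which encodes a fusion of a ribosomal protein with a ubiquitin-like protein, was open in WT (42 tags) and KO2 (13 tags) and not in KO1. On the X chromosome Rpl10, Rpl36a and Rpl39 were open in every library. Rps4x had no listed summit in WT, the deepest library, while it had 6 tags in KO1 (interval 2.20 to 13.1) and 21 in KO2 (13.0 to 32.1).

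Processed pseudogenes named after ribosomal protein genes were almost never open. Of 259, 1 had a summit in each library (0.386%, interval 0.0682 to 2.15), and it was another one each time, Rpl36-ps1, Rpl30-ps2 and Rpsa-ps3. Among 10945 other processed pseudogenes the shares were 1.29%, 0.694% and 1.29%. How the authors placed reads that match several copies was not given in the sources used here, and its part was not tested.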
